A study of Mus musculus with 24 samples.

Results

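The genes that encode chromatin modifiers and remodelers were examined for peaks of the transcription factors SOX8 and SOX9 and of the histone marks H3K4me3 and H3K27ac in mouse retina. Members were chosen by their symbols alone: protein-coding genes named Kmt2 or Kmt5, Kdm1 to Kdm8, Hdac, Smarc, Chd1 to Chd9, Setd with a number, Ezh1 or Ezh2, and Arid1 to Arid5. This gave 80 genes of 21887 protein-coding genes on the autosomes and sex chromosomes. The rule uses no peak value.

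Chromatin modifiers add or remove chemical groups on histone tails. Methyltransferases of the Kmt2 and Setd1 families write H3K4 methylation, the mark of promoters and enhancers, and the Kdm and Hdac enzymes remove methyl and acetyl groups. Remodelers of the SWI/SNF (BAF), ISWI and CHD families use ATP to slide or evict nucleosomes, and in the developing retina several of them act in the passage from dividing progenitors to neurons and Müller glia. SOX8 and SOX9 are related factors of the SoxE group, with an HMG box that binds DNA. SOX9 is made in retinal progenitors and in Müller glia, the radial glia of the retina.

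The series used CUT&RUN, in which an antibody brings a nuclease to a chromatin protein and the DNA cut loose around it is sequenced. Wild-type retinas were taken at postnatal day 2 (P2), when progenitors still divide, and at postnatal day 17 (P17), when the retina is largely differentiated. Each reaction held 600000 nuclei of whole retina, so that every retinal cell type contributes to each library. Of the 24 libraries, each age had 4 for SOX8 (2 antibodies, with 2 libraries each) and 2 each for SOX9, H3K4me3, H3K27ac and a nonspecific IgG. All animals shared the wild-type genotype, and no SOX mutant was among these samples. The deposited peak lists number 8, with a P2 and a P17 list for every target. They hold positions and a score field that is 0 in every line, so no height and no value per replicate is given. No replicate error or p-value can therefore be given, sequencing depth is unknown, and the IgG libraries were not analysed here.

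The lists differed in length: 2653 SOX8, 5476 SOX9, 9134 H3K4me3 and 287845 H3K27ac peaks at P2, against 2400, 2855, 9629 and 29909 at P17. Among marker genes, progenitor genes had SOX9 peaks at 5 of 5 at P2 and 0 of 5 at P17, and SOX8 peaks at 3 and 0. Rod photoreceptor genes had SOX9 peaks at 2 of 6 at P2 and 6 of 6 at P17, and SOX8 peaks at 2 and 4. Müller glia genes had SOX9 peaks at 3 of 4 at P2 and at 0 of 4 at P17, and SOX8 peaks at 2 and 0. At P17 the SOX9 list thus had peaks at rod genes and none at the markers of Müller glia, the cells in which SOX9 is known to be made. Over all genes, 27.7% had a SOX9 peak at P2 and 15.7% at P17, and 15.1% and 13.0% had a SOX8 peak. With so few markers, 0 of 4 or 0 of 5 at P17 does not stand apart from these shares. P17 H3K4me3 lay at 1 of the 4 Müller glia markers, 2 of the 5 progenitor markers and 6 of the 6 rod markers. Whether the P17 SOX peaks mark SOX8 or SOX9 bound in Müller glia was not tested, and every P17 SOX result below is of peaks in lists so labelled. Microglia genes had a SOX8 and a SOX9 peak at 1 of 3 at both ages, and endothelial genes at 0 of 3. A gene was taken to have a peak if at least 1 bp of the gene, or of its 5 kb flanks, lay under a peak of the list. The widest peak of a gene can therefore lie in a flank, over a neighbouring gene, and this is said where it bears on a value.

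Chromatin genes carried SOX peaks more often than protein-coding genes as a whole. At P2, 56 of 80 members (70.0%) had a SOX9 peak, against 27.7% of all protein-coding genes, and 42 (52.5%) had a SOX8 peak, against 15.1%. At P17, 38 members (47.5%) had a SOX9 peak, against 15.7%, and 34 (42.5%) had a SOX8 peak, against 13.0%. In bulk tissue, fewer cells that carry a peak and less signal per cell cannot be told apart. The histone marks covered nearly the whole group. H3K4me3 lay at 74 members at P2 and 76 at P17, against 49.3% and 50.9% of all genes, and H3K27ac at 79 and 77, against 81.8% and 57.0%. Among genes with H3K4me3 of the same age the H3K27ac shares were close. They were 100% of members against 99.8% of genes at P2, and 98.7% against 94.2% at P17.

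**Figure D1:**
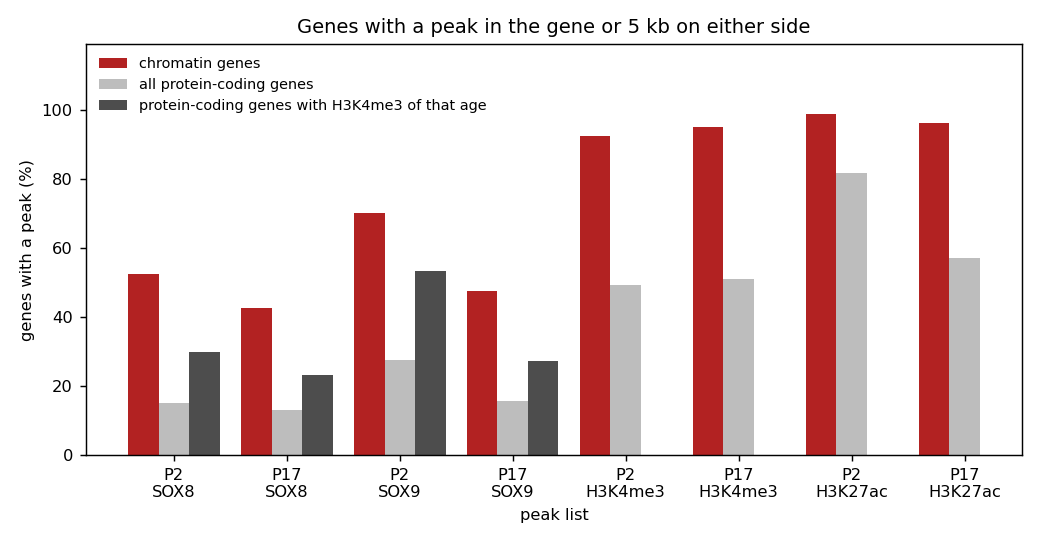
Share of genes with a peak in the gene or 5 kb on either side (vertical axis, percent) in each of the 8 peak lists (horizontal axis), for the 80 chromatin genes (red), all 21887 protein-coding genes (light grey) and, for SOX lists, protein-coding genes with an H3K4me3 peak of that age (dark grey). The red bar is the highest in every list, from 42.5% for P17 SOX8 to 98.8% for P2 H3K27ac.

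The difference was smaller among genes with H3K4me3 and was also present among long genes. Among genes with H3K4me3 of the same age, the P2 SOX8 share was 42 of 74 members against 29.8% of genes, and the P2 SOX9 share was 56 of 74 against 53.3%. At P17 the SOX8 share was 33 of 76 against 23.1%, and the SOX9 share was 38 of 76 against 27.4%. The members are also long genes, with a median of 51245.5 bp against 17169 bp for all genes. Among genes of at least 26579 bp, the lower quartile of the members, 34 of 60 members (56.7%) had a P2 SOX8 peak against 18.5% of genes, and 48 had a P2 SOX9 peak against 35.0%. The same long genes gave 28 members (46.7%) against 13.9% for P17 SOX8 and 30 members against 17.1% for P17 SOX9. The member share was thus above that of genes with H3K4me3 and above that of long genes in each of the 4 SOX lists.

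A peak in all 4 SOX lists was present at 24 members (30.0%), against 6.45% of all genes, and 19 members (23.8%) had no SOX peak in any list, against 66.1%. A peak in 1 list was present at 12 members (15.0%, against 13.9%), in 2 lists at 13 (16.2%, against 8.73%) and in 3 lists at 12 (15.0%, against 4.83%). Of the 24 with all 4 lists, 21 had a peak over the gene itself in each, against 5.25% of all genes. The exceptions were Kmt2a, Smarcc1 and Smarcc2, which at 1 or more lists had peaks in a flank only. Counting only peaks within 1 kb of a transcription start, 15 members had a peak in all 4 lists, against 4.60% of all genes. These were Kmt2b, Kmt2c, Kmt2e, Setd1a, Setd3, Kdm1b, Kdm2a, Kdm3a, Kdm4b, Kdm6b, Hdac4, Chd4, Arid1b, Arid2 and Arid4b. For genes whose strand the promoter table does not give, both gene ends stood in for the start.

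Members with 1 factor often had the other. At P2, 40 of 58 members with either factor had both (69.0%), against 50.9% of 6211 genes with either, and at P17 25 of 47 (53.2%), against 47.7% of 4261. At P2, 16 members had SOX9 alone and 2, Kdm8 and Smarcd1, had SOX8 alone. At P17, 13 had SOX9 alone and 9 had SOX8 alone. The P17 members with SOX8 alone were Setd2, Setd7, Kdm2b, Kdm7a, Hdac1, Hdac2, Hdac7, Smarca5 and Arid5a, with the peak in a flank only at Setd2 and Hdac1. Of these, all but Arid5a and Hdac7 had both factors at P2. The P2 SOX9 list is longer than the P2 SOX8 list, 5476 against 2653 peaks, while the lists are of like length at P17.

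Promoters with SOX peaks are shown first, since most SOX peaks at members lay at a transcription start or a gene end that stood in for one. The table of promoter sequences held 61 of the 80 members, and each window spans 250 bases before to 50 after a start, from RefSeq on GRCm38.p6. The first 4 promoters below belong to members with a peak in all 4 SOX lists and show their density of CG dinucleotides, which are in capitals. Arid1b, at chr17:4994824-4995123 (plus strand), and Chd4, at chr6:125095731-125096030 (plus strand), lay under a peak of all 4 SOX lists. Smarcd3, at chr5:24601953-24602252 (minus strand), lay under P2 SOX9, P17 SOX8 and P17 SOX9 peaks. Kmt2a, at chr9:44881240-44881539 (minus strand), lay under P2 SOX8, P2 SOX9 and P17 SOX9 peaks.
Arid1b: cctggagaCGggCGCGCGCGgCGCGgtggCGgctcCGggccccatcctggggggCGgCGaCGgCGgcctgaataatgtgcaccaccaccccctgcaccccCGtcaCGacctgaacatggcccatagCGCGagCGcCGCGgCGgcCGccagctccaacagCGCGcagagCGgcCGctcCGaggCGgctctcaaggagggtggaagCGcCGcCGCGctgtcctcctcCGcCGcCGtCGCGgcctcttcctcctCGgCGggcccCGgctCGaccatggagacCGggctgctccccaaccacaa
Chd4: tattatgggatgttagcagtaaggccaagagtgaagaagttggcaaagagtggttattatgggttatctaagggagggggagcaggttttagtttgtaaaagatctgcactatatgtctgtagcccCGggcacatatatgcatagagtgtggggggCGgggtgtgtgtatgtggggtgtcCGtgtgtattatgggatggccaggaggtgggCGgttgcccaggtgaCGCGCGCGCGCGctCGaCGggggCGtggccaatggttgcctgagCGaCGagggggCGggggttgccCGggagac
Smarcd3: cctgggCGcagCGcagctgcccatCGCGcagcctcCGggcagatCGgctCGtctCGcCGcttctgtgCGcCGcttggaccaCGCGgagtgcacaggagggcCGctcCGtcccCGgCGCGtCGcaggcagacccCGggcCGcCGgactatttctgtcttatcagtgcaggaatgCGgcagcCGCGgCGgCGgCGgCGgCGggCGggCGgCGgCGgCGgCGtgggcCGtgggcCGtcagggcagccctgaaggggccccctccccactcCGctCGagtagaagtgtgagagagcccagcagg
Kmt2a: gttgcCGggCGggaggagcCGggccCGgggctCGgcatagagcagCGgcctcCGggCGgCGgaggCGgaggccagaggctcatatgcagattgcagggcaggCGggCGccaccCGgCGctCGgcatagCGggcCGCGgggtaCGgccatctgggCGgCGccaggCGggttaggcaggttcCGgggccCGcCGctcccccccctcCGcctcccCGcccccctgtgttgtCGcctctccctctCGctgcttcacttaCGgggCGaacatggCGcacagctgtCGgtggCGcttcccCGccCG
The Arid1b window held 42 CG dinucleotides, Smarcd3 held 40, Kmt2a held 36 and Chd4 held 17. The median was 25 over 81 member promoters and 13 over 21263 promoters of protein-coding genes. Promoters under a SOX peak were rich in CG among all genes, with a median of 25 against 8 under none, and among members, with 29 against 14.

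None of these 4 windows held the core SOX motif. The motif ACAAT, searched on both strands (as ATTGT on the other), was in 18 of 81 member promoters (22.2%), against 27.7% of 21263 promoters. The longer AACAAT, which contains ACAAT and reads ATTGTT on the other strand, was in 6 (7.41%), against 9.05%. ACAAAG, or CTTTGT, was in 14 (17.3%), against 16.8%. Among member promoters under a SOX peak, 13 of 53 (24.5%) held ACAAT, and among those under none, 5 of 28 (17.9%). Over all genes the order was the opposite, with 16.7% of 5606 and 31.6% of 15657. A match is a description of letters and not a binding site, and a window without a match says nothing about the factor. The 3 member promoters below hold the motif, with its letters in capitals, and were picked after their values were seen. Smarcad1, at chr6:65042341-65042640 (plus strand), encodes a SWI/SNF-related ATPase and had 4 matches to ACAAT under a P2 SOX9 peak. Kdm3a, at chr6:71632868-71633167 (minus strand), had 1 match under a peak of all 4 SOX lists. Chd5, at chr4:152338401-152338700 (plus strand), had 1 match under a peak found in the P17 SOX9 list only.
Smarcad1: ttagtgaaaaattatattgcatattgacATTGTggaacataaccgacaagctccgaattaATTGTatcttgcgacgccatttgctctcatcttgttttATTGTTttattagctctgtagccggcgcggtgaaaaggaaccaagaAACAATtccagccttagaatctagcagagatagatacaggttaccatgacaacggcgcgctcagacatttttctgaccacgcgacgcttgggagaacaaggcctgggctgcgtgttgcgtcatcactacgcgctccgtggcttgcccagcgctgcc
Kdm3a: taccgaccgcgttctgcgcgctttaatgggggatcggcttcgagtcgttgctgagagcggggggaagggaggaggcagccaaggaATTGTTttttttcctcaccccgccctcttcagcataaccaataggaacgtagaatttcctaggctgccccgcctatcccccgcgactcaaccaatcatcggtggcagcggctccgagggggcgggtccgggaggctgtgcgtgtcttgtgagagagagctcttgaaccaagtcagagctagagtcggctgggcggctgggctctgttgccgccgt
Chd5: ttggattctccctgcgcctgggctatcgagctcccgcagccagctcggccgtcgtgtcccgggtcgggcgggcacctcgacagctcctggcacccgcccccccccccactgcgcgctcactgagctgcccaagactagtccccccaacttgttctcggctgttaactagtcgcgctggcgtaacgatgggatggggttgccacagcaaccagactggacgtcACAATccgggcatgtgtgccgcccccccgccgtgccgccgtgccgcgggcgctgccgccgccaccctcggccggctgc
The matches lie within windows of 47.3% GC for Smarcad1, 60.7% for Kdm3a and 70.7% for Chd5, against a median of 63.0% over member promoters and 56.3% over all.

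The 7 H3K4 methyltransferase genes were the most completely marked. All 7 had a SOX9 peak at both ages, against 27.7% of all genes at P2 and 15.7% at P17. SOX8 peaks lay at 6 of them at each age, against 15.1% and 13.0%. A peak in all 4 SOX lists was present at 6, against 6.45%, the exception being Kmt2d. Setd1b, a catalytic subunit of the complexes that write most H3K4me3, had the widest P2 peaks among members for both factors. Its widest SOX8 peak was 7484 bp at P2 and 8358 bp at P17, its widest SOX9 peak 10001 and 9711 bp, and its H3K4me3 peak 11744 and 12552 bp. The P2 SOX8 peak at chr5:123135260-123142743 ranked 5 of the 3302 genes with a P2 SOX8 peak. It also overlapped the neighbouring gene Rhof, and the widest P17 SOX8 peak, at chr5:123131290-123139647, lay outside Setd1b in its flank over Rhof. Within the gene, P17 alone had a SOX8 peak of 4026 bp and a SOX9 peak of 5042 bp (chr5:123148025-123153066), both under H3K27ac and without H3K4me3.

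The other H3K4 methyltransferases had narrower peaks. Setd1a, the paralogue of Setd1b, had SOX8 peaks of 2177 and 2551 bp and SOX9 peaks of 2910 and 3236 bp at P2 and P17. Kmt2b (MLL2), which trimethylates H3K4 at CpG-rich promoters, had SOX8 peaks of 3004 and 4110 bp and a SOX9 peak of 5048 bp at P2 and 2750 bp at P17, all at its start. A wider P17 SOX9 peak of 5104 bp lay in its flank over Igflr1, Psenen and U2af1l4. Kmt2a (MLL1), a paralogue best known for Hox gene control, had a SOX8 peak of 3607 bp at its start at P2. At P17 its only SOX8 peak, of 2374 bp, lay in the flank at the genes Tmem25 and Ttc36, beyond the far end of Kmt2a. The SOX9 peaks of Kmt2a, of 4058 bp at P2 and 3864 bp at P17, both covered its start. Kmt2e, a member with little methyltransferase activity of its own, had SOX8 peaks of 3164 and 2579 bp and SOX9 peaks of 5192 and 4890 bp. Kmt2d, which monomethylates H3K4 at enhancers, had no SOX8 peak. Its SOX9 peak at the start was 2216 bp at P2 and 5586 bp at P17. A second P17 SOX9 peak of 6395 bp, at chr15:98849083-98855477 within the gene, overlapped neither mark.

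Of the 11 other methyltransferase genes, 7 had each factor at P2 and 4 had each at P17. Over all genes, SOX8 and SOX9 peaks lay at 15.1% and 27.7% at P2, and at 13.0% and 15.7% at P17. Ezh2, the catalytic subunit of Polycomb repressive complex 2 in dividing cells, had a SOX8 peak of 2851 bp and a SOX9 peak of 2557 bp over its start at P2 (chr6:47593624-47596474 for SOX8). Neither factor had a peak there at P17, while its H3K4me3 peak was present at both ages, 5138 and 4038 bp wide. Ezh1, its paralogue in non-dividing cells, had no SOX peak at either age, and H3K4me3 peaks of 2013 and 2538 bp. Kmt5b and Kmt5c, which di- and trimethylate H4K20, had both factors at P2 and SOX9 alone at P17, with SOX9 peaks of 3200 and 5231 bp at Kmt5b and 2131 and 5350 bp at Kmt5c. Kmt5a, which writes H4K20 monomethylation, had no SOX peak, nor did Setd4 or Setd6. Setd3 and Setd5 had a peak in all 4 SOX lists. At Setd2, which trimethylates H3K36, SOX9 peaks were in the P2 list only, and the SOX8 peak was 1611 bp at its start at P2 and 3645 bp in its flank at P17.

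Among the 18 demethylase genes, SOX9 peaks lay at 14 at P2 and 8 at P17, against 27.7% and 15.7% of all genes. SOX8 peaks lay at 10 and 7, against 15.1% and 13.0%. Kdm6b (JMJD3), which removes H3K27 methylation, stood apart. At P2 it had 3 SOX8 peaks of 2788, 2816 and 3348 bp, and 3 SOX9 peaks of 3076, 5529 and 6583 bp. At P17 it had 2 peaks for each factor, and the wider was 16217 bp for SOX8 (chr11:69403785-69420001) and 18535 bp for SOX9 (chr11:69403490-69422024). The SOX8 peak was the widest of all 2850 genes with a P17 SOX8 peak, and the SOX9 peak ranked 37 of 3445. SOX8 peaks covered 28.1% of the gene and its flanks at P2 and 58.4% at P17. The H3K4me3 domain in the same place hardly differed between the ages, 14809 and 14873 bp, and its P2 width ranked 20 of 10788 genes. A narrower set of peaks at and beyond the lower end of the gene lay at Cyb5d1, Naa38 and Tmem88, and the widest SOX9 peak of each age reached Dnah2 at the upper end.

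Kdm6a (UTX), the X-linked paralogue of Kdm6b, had a SOX8 peak of 2500 bp at P2 and none at P17, and SOX9 peaks of 2568 and 2891 bp. It was the only X-linked member of 5 with a SOX peak, and 50 of 966 X-linked protein-coding genes had one. Kdm1a (LSD1), which removes mono- and dimethylation of H3K4, had a SOX9 peak of 3537 bp at P2 alone and no SOX8 peak. Its paralogue Kdm1b had peaks in all 4 SOX lists, of 2437 to 2970 bp. The H3K4me3 demethylase Kdm5b had SOX9 peaks at P2 alone, of 2598 bp at its start and 2997 bp in its flank, both overlapping Mgat4e. Both lay within a broad H3K4me3 peak of 10168 bp at P2 and 8764 bp at P17. Kdm5a also had SOX9 at P2 alone, 2103 bp wide, and Kdm5c had no SOX peak. Kdm5d, on the Y chromosome, had no peak in any of the 8 lists. At Kdm4b, which demethylates H3K9 and H3K36, the SOX9 peak at the lower end of the gene was 3113 bp at P2 and 2858 bp at P17. The widest P17 SOX9 peak, of 7959 bp, was a different one further inside the gene. Of the 4 P17 SOX9 peaks at Kdm4b, 3 lay under H3K27ac without H3K4me3.

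The 11 histone deacetylase genes had SOX8 peaks at 3 members at P2 and 5 at P17, against 15.1% and 13.0% of all genes. SOX9 peaks lay at 4 and 3, against 27.7% and 15.7%, so the P2 SOX9 count was near the all-gene share. No SOX peak was present at 5 of the 11, against 66.1% of all genes. The class I enzymes Hdac1 and Hdac2, the catalytic subunits of the NuRD and Sin3 complexes, differed in where their peaks lay. At Hdac1 the SOX8 peaks of 2481 and 2763 bp at P2 and P17, and a SOX9 peak of 3143 bp at P2, lay in the flank over Marcksl1. The only SOX peak that touched Hdac1 itself was a P2 SOX9 peak of 1832 bp. Hdac2 had SOX8 peaks of 2622 and 1674 bp and a SOX9 peak of 2330 bp at P2 alone, all at its start. Hdac3, another class I enzyme, had no SOX peak, with H3K4me3 at both ages. The class IIa genes, whose products shuttle between nucleus and cytoplasm, each had a different pattern. Hdac4 had peaks in all 4 SOX lists, of 2563 to 3052 bp. Hdac5 had none at P2, and at P17 a SOX8 peak of 3379 bp at its start and 3 SOX9 peaks of 5222, 4896 and 5116 bp. Hdac7 had a P2 SOX9 peak of 4531 bp at a start and a P17 SOX8 peak of 3138 bp elsewhere in the gene (chr15:97807533-97810670), under H3K27ac without H3K4me3. Hdac9, the longest member at 869516 bp, had no SOX peak. It had no H3K4me3 peak at P2 and 2 at P17, the wider of 5274 bp.

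Of the 13 SWI/SNF and ISWI genes, 9 had SOX9 at P2 and 7 at P17, against 27.7% and 15.7% of all genes. For SOX8 the counts were 7 and 6, against 15.1% and 13.0%. Smarca4 (BRG1), the main BAF ATPase, had SOX8 peaks of 2292 and 2441 bp at its start. Its SOX9 peak was 2364 bp at the start at P2, and at P17 it was 7933 bp and lay within the gene at chr9:21631870-21639802, without H3K4me3. Smarca2 (BRM), the alternative ATPase, had SOX9 alone, 2526 bp wide at P2 and 4847 bp at P17. Smarcd3, the BAF60c subunit, had a SOX8 peak of 2247 bp inside the gene at P2 and one of 6420 bp at P17, SOX9 peaks of 6318 and 7757 bp, and H3K4me3 peaks of 7752 and 6722 bp. Smarcc1 and Smarcc2, the scaffold subunits, had SOX peaks over the gene itself at P2 alone. Smarcc1 had a SOX9 peak of 2727 bp at its start, and Smarcc2 a SOX8 peak of 2668 bp and a SOX9 peak of 2983 bp at its start. Their P17 peaks lay in a flank, with SOX8 and SOX9 peaks of 3197 and 4073 bp over Cspg5, beside Smarcc1, and of 2797 and 4854 bp over Myl6 and Myl6b, beside Smarcc2. Smarcd1 had SOX8 alone at P2 (2664 bp) and SOX9 alone at P17 (5508 bp), both over its start. The core subunit genes Smarcb1 and Smarce1 had no SOX peak in any list.

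Among the 10 CHD genes, 8 had SOX9 at P2 and 4 at P17, against 27.7% and 15.7% of all genes. For SOX8 the counts were 4 and 2, against 15.1% and 13.0%, so the P17 SOX8 count was near the all-gene share. Chd4, the usual ATPase of NuRD, had SOX8 peaks of 2671 and 4061 bp and widest SOX9 peaks of 1360 and 5030 bp, all at its start. Chd5, the neuronal NuRD ATPase, had no SOX or H3K4me3 peak at P2. At P17 it had an H3K4me3 peak of 3264 bp at its start (chr4:152338032-152341295) and 4 SOX9 peaks of 6778, 4483, 5273 and 7614 bp along the gene, and no SOX8 peak. The first of these SOX9 peaks covered the start, and the second and the third overlapped neither mark. The last ran past the end of the gene and also overlapped Kcnab2. Chd7, mutated in CHARGE syndrome, had the reverse order. Its P2 peaks were a SOX8 peak of 2783 bp and SOX9 peaks of 3393 bp at the start and 5694 bp inside the gene (chr4:8849734-8855427), and it had none at P17. Its H3K4me3 peak at the start was present at both ages, 5883 and 4534 bp wide. Chd2, Chd6 and Chd8 had SOX9 peaks at P2 alone, of 5743, 3337 and 2576 bp.

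Of the 10 ARID genes, 7 had SOX9 at P2 and 5 at P17, against 27.7% and 15.7% of all genes. For SOX8 the counts were 5 and 4, against 15.1% and 13.0%. Arid1a, the defining subunit of the canonical BAF complex, had a SOX8 peak of 4967 bp at P2 and none at P17. Its SOX9 peak at the start was 7326 bp at P2 and 4385 bp at P17, within H3K4me3 peaks of 11461 and 10875 bp. Arid1b, its alternative, had peaks in all 4 lists, with SOX8 peaks of 3526 and 3019 bp and SOX9 peaks at the start of 4246 and 5049 bp. A P2 SOX9 peak of 7174 bp lay deep in the gene (chr17:5292700-5299873), under H3K27ac without H3K4me3, and was in the P2 list only. Arid2, the PBAF subunit, had SOX8 peaks of 3637 and 2161 bp and SOX9 peaks of 5549 and 4338 bp. Arid3a, a DNA-binding protein outside these complexes, had SOX9 alone, 5130 bp at P2 and 9914 bp at P17. Arid3b, Arid3c and Arid5b had no SOX peak.

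**Figure D2:**
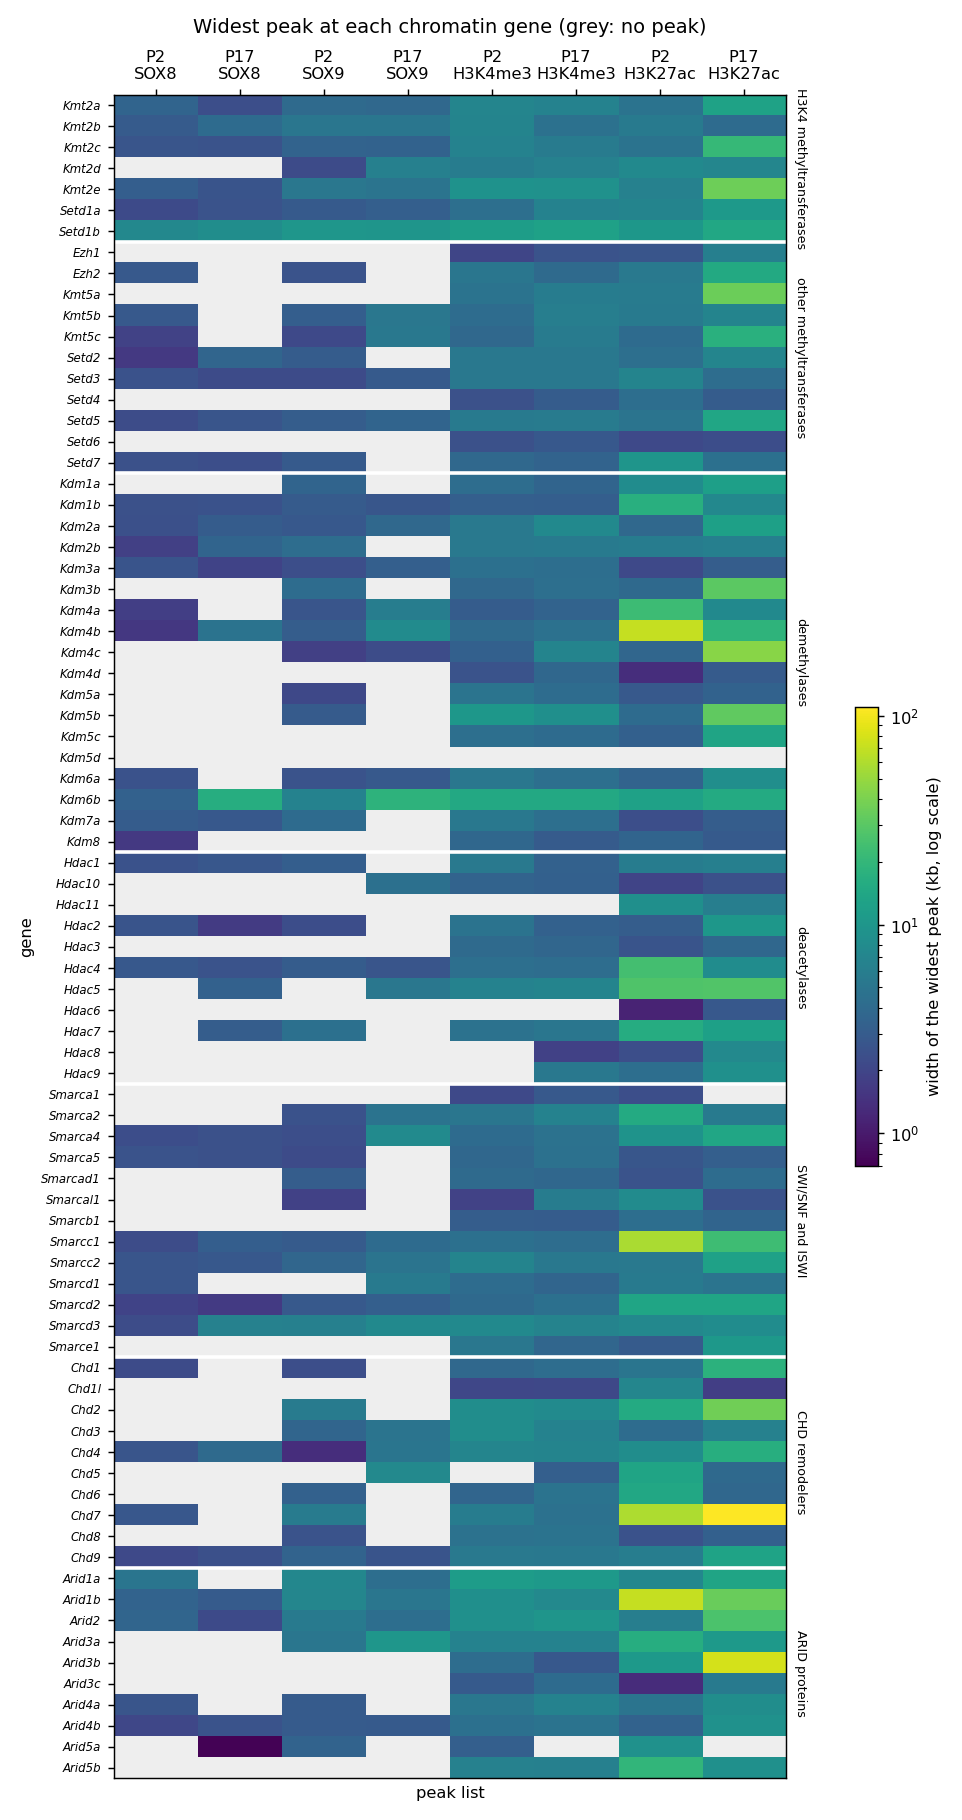
Width of the widest peak (colour, kb, log scale) at each of the 80 chromatin genes (rows, grouped by role) in the 8 peak lists (columns, P2 and P17 side by side for each target); grey cells have no peak. The Setd1b and Kdm6b rows are coloured in all 8 columns, and the SOX columns are grey at 19 genes.

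From P2 to P17 more members lost than gained a SOX peak, where lost means a peak in the P2 list and none in the P17 list. For SOX9, 22 members lost a peak, against 16.4% of all genes, and 4 gained one, against 4.35%. For SOX8, 11 lost one, against 7.0%, and 3 gained one, against 4.94%. Because members had more peaks at the start, losses are also given among the genes with a P2 peak. There 22 of 56 members (39.3%) lost SOX9, against 58.9% of genes, and 11 of 42 (26.2%) lost SOX8, against 46.4%. Read this way, the share that lost a peak was lower among members than among genes in general for both factors. This order reversed with only the peaks wider than the median of their list, where 24 of 32 members (75.0%) lost SOX8, against 64.3% of genes, and 34 of 40 (85.0%) lost SOX9, against 73.8%. Among genes without a P2 peak, 4 of 24 members gained SOX9, against 6.01%, and 3 of 38 gained SOX8, against 5.82%. The SOX9 lists differ in length. With equal numbers of their widest peaks, 13 members gained a SOX9 peak, against 8.16% of all genes, and 15 lost one, against 6.90%. With only the peaks wider than the median of their list, 5 members gained one, against 4.76%, and 34 lost one, against 10.2%. The size of the excess of SOX9 losses over gains thus depended on which peaks were kept.

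The 4 members that gained SOX9 were Chd5, Smarcd1, Hdac5 and Hdac10, with widest P17 peaks of 7614, 5508, 5222 and 4518 bp. That of Chd5 also overlapped Kcnab2. The 3 that gained SOX8 were Hdac5, Hdac7 and Arid5a, of which the Arid5a peak of 715 bp overlapped neither mark. Hdac5 was thus the member that gained both. Ezh2, Chd1, Chd7 and Arid4a lost both factors. The widest SOX9 peaks lost were those of Chd2 (5743 bp), Chd7 (5694 bp), Hdac7 (4531 bp), Kdm2b (4252 bp), Kdm3b (4188 bp) and Kdm7a (4127 bp). The Kdm3b peak lay mostly in the flank, over Reep2, and a second lost SOX9 peak at the other end of Kdm3b was 2242 bp. The widest SOX8 peaks lost were at Arid1a (4967 bp), Kmt5b (2869 bp), Ezh2 (2851 bp), Chd7 (2783 bp), Smarcd1 (2664 bp) and Arid4a (2635 bp). No H3K4 methyltransferase gene lost or gained a peak of either factor, counting the P17 SOX8 peak in the flank of Kmt2a. At all but 1 of the members that lost a SOX peak, Arid5a, H3K4me3 was in both lists.

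**Figure D3:**
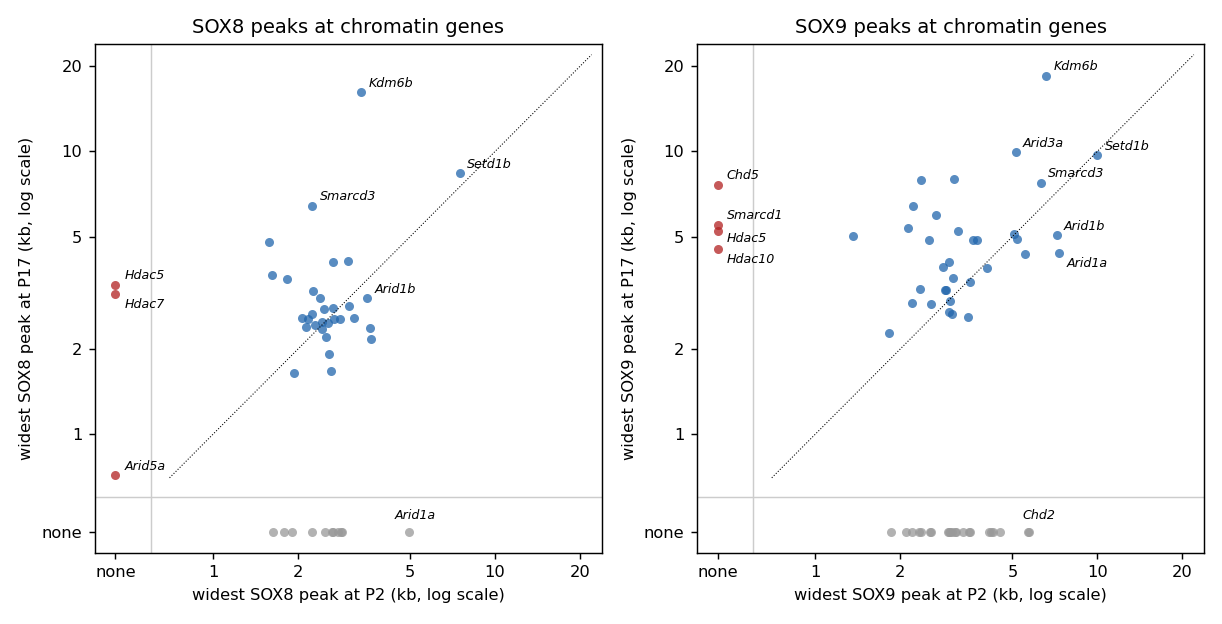
Width of the widest SOX8 (left) and SOX9 (right) peak at each chromatin gene at P2 (horizontal, kb, log scale) and P17 (vertical, kb, log scale), with genes lacking a peak at an age set on the "none" line; blue, peak at both ages, red, P17 only, grey, P2 only, and the dotted line marks equal width. Kdm6b lies far above the line in both panels, at 16217 and 18535 bp at P17, and the grey row holds 11 genes for SOX8 and 22 for SOX9.

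Among members with a peak at both ages, widths at P17 and P2 were close for SOX8 and larger at P17 for SOX9. The widest SOX9 peak was wider at P17 at 23 of 34 members, with a median ratio of 1.24, against 81.0% of 2494 genes and a ratio of 1.52. The widest SOX8 peak was wider at 18 of 31 members, with a ratio of 1.07, against 65.2% of 1769 genes and a ratio of 1.12. H3K4me3 was wider at 36 of 73 members (ratio 0.997), against 59.2% of genes (1.05). H3K27ac was wider at 54 of 77 (1.47), against 63.1% (1.30). A wider widest SOX9 peak at P17 was thus general to the list, and the ratio was lower at members than over genes as a whole. The widest peak of a gene can be a different peak at each age, as for SOX9 at Smarca4. No single peak was followed between the ages.

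Member peaks were broad at P2 and narrower than usual at P17. The median widest peak of members with one was 2526.5 bp for P2 SOX8, against 2223.5 bp over all genes, and 3068 bp for P2 SOX9, against 2666 bp. At P17 it was 2622 bp for SOX8, against 3058 bp, and 4850.5 bp for SOX9, against 5501 bp. Members exceeded the 90th percentile of all genes at 13 of 56 for P2 SOX9 and at 2 of 38 for P17 SOX9, Kdm6b and Arid3a. Their H3K4me3 peaks were broad at both ages, with medians of 4729 and 4686 bp, against 3682 and 3885 bp. As a description across genes, which share libraries and a peak caller, the widths of P2 SOX8 and H3K4me3 peaks correlated with a Spearman rho of 0.62 over 42 members, and those of P2 SOX9 and H3K4me3 with 0.57 over 56. Over all genes with both peaks these were 0.45 (3219 genes) and 0.44 (5750 genes). At P17 they were 0.40 over 33 members for SOX8 and 0.21 over 38 for SOX9, against 0.19 and 0.15 over all genes. Widths of the widest peaks at P2 and P17, which need not be the same peak, were also compared. They had a rho of 0.73 for H3K4me3 over 73 members, 0.34 for SOX9 over 34 and 0.00 for SOX8 over 31. Over all genes the values were 0.64, 0.29 and 0.37.

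SOX peaks were more frequent where H3K4me3 was wider. Genes with H3K4me3 were put into 4 bins of nearly equal size by the width of their widest H3K4me3 peak, a division added after the data were seen. In the narrowest bin at P2, 0 of 8 members had SOX8 and 1 of 8 had SOX9, against 10.6% and 27.5% of genes. In the widest bin, 25 of 38 members had SOX8 and 34 of 38 had SOX9, against 54.5% and 79.4%. At P17 the narrowest bin held 9 members, none with a SOX peak, and the widest held 34, of which 19 had SOX8 and 24 had SOX9, against 45.0% and 54.0% of genes. Members were thus concentrated in the bin where SOX peaks are common, and the share of members with a peak there was above that of genes in general for both factors at both ages. The difference for SOX8 was larger in the third bin at P2, where 15 of 21 members had SOX8, against 34.9%, and 16 of 21 had SOX9, against 63.0%.

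**Figure D4:**
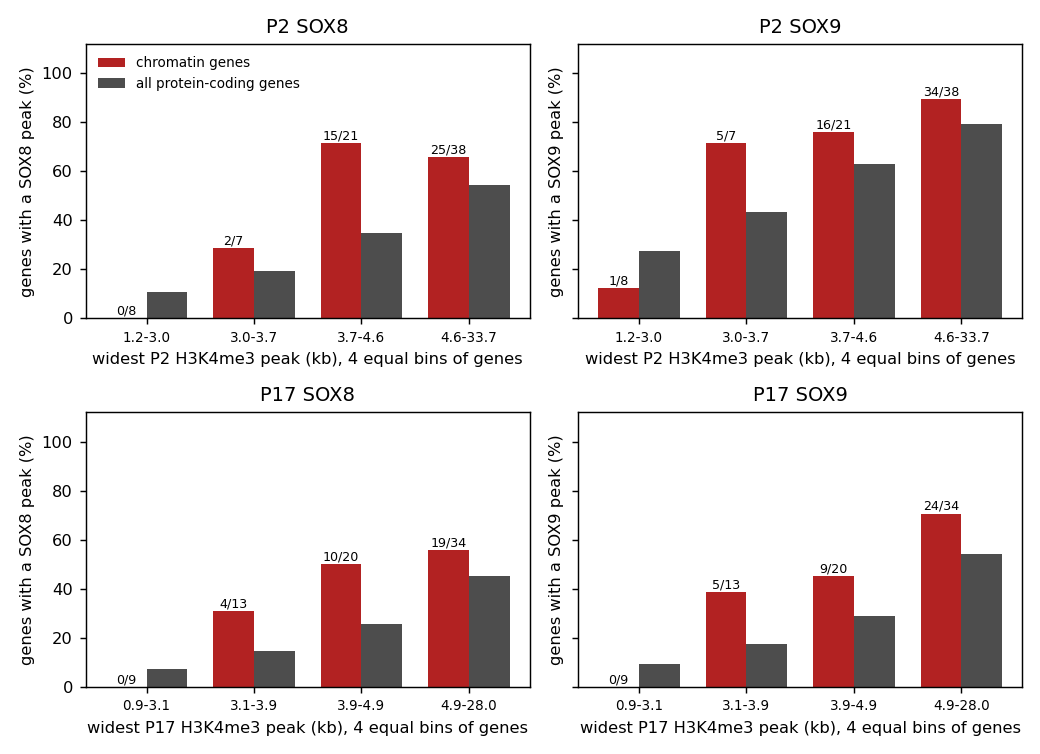
Share of genes with a SOX peak (vertical axis, percent) in 4 equal bins of protein-coding genes ordered by the width of their widest H3K4me3 peak (horizontal axis, kb), for the 4 SOX lists; red, chromatin genes with their counts above the bar, dark grey, all protein-coding genes with H3K4me3. Bars are higher in the widest than in the narrowest bin in all 4 panels, and 38 of 74 members at P2 and 34 of 76 at P17 fall in the widest bin.

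Most SOX peaks at members lay under H3K4me3 and within 1 kb of a start. Both gene ends stood in for the start where the promoter table gives none, so some of these peaks may lie at the other end. The Hdac1 peaks over Marcksl1 are counted in this way. Of 45 P2 SOX8 peaks at members 37 were within 1 kb of a start, as were 55 of 74 P2 SOX9, 24 of 37 P17 SOX8 and 33 of 52 P17 SOX9 peaks. Peaks near a start were not counted over the whole lists, so these shares do not set members apart. Counted by gene, 37 members had a P2 SOX8 peak there, against 12.1% of all genes, and 53 a P2 SOX9 peak, against 22.6%. For P17 the counts were 24 for SOX8, against 8.90%, and 31 for SOX9, against 10.8%. H3K4me3 of the same age overlapped 100% of the P2 SOX8 peaks at members, against 90.1% of the whole list, 90.5% of the P2 SOX9 peaks (79.8%), 86.5% of the P17 SOX8 peaks (69.7%) and 76.9% of the P17 SOX9 peaks (66.5%). Peaks at members recurred at the other age more often than the list did, with 66.7% against 45.8% for P2 SOX8 and 47.3% against 31.1% for P2 SOX9. For P17 the shares were 78.4% against 50.4% for SOX8 and 67.3% against 58.6% for SOX9. A share of these peaks cannot be assigned to the member alone, since 12 P2 SOX8, 20 P2 SOX9, 14 P17 SOX8 and 15 P17 SOX9 peaks also overlapped another protein-coding gene.

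SOX9 peaks away from H3K4me3 numbered 7 of 74 at P2 and 12 of 52 at P17. The 7 at P2 lay at Setd2, Chd3, Chd7, Chd9, Arid1a, Arid1b and Arid3a, all under H3K27ac. Those inside Arid1a (chr4:133728595-133731922, 3328 bp) and Arid3a (chr10:79944435-79947590, 3156 bp) were, like those inside Chd7 and Arid1b, in the P2 list only. The 12 at P17 lay at 8 members: 3 each at Kdm4b and Chd5, and 1 each at Kmt2d, Setd1b, Kdm4a, Hdac5, Smarca4 and Chd4. Of the 52 P17 SOX9 peaks, 48 (92.3%) overlapped H3K27ac, against 84.3% of the whole list. Away from H3K4me3, 6 of the 7 P2 peaks were thus at ARID and CHD genes, and 7 of the 12 P17 peaks at Chd5, Kdm4a and Kdm4b. How such peaks are spread over other genes was not counted, so these numbers do not set those members apart.

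**Figure D5:**
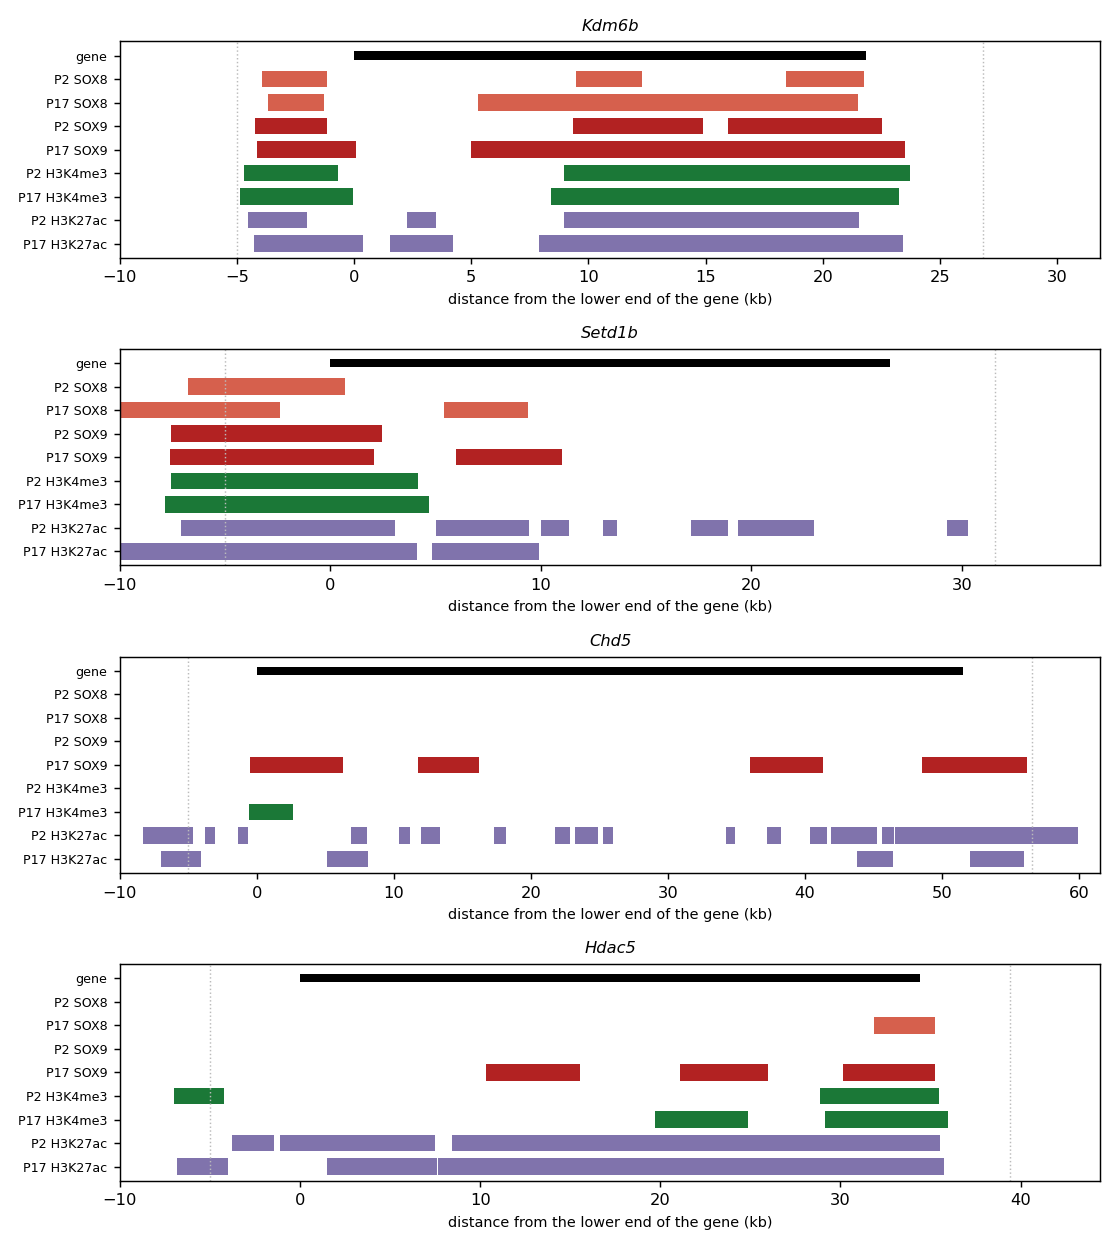
Peaks of the 8 lists (rows) along Kdm6b, Setd1b, Chd5 and Hdac5, as distance in kb from the lower end of the gene (horizontal axis); the black bar is the gene and the dotted lines lie 5 kb beyond its ends. At Kdm6b the P17 SOX8 and SOX9 peaks span 16217 and 18535 bp where P2 has separate peaks, and at Chd5 and Hdac5 the SOX rows are empty at P2.

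Only a few members lacked the promoter mark. At P2, H3K4me3 was absent from Kdm5d, Chd5, Hdac6, Hdac8, Hdac9 and Hdac11, and at P17 from Kdm5d, Hdac6, Hdac11 and Arid5a. Chd5, Hdac8 and Hdac9 gained a peak (3.75% of members, against 5.0% of all genes) and Arid5a lost one (1.25%, against 3.40%). Neither share was above that of all genes. Arid5a, whose product binds RNA and DNA, had a P2 H3K4me3 peak of 3233 bp and a P2 SOX9 peak of 3517 bp at its start. At P17 it had neither mark and only the 715 bp SOX8 peak (chr1:36320399-36321113). H3K27ac was gained by 0 members, against 0.315% of genes, and lost by 2, Smarca1 and Arid5a, against 25.1%. The P2 H3K27ac list covers 525 Mb and the P17 list 173 Mb, so presence in the P2 list sets few genes apart. The widest P2 H3K27ac peaks at members lay at Arid1b (70684 bp), Kdm4b (69858 bp) and Chd7 (59304 bp). At P17 they lay at Chd7 (108526 bp), Arid3b (79606 bp) and Kdm4c (44613 bp). Chd7 therefore had the widest P17 H3K27ac domain of the group at the age when it had no SOX peak.

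Partner genes of the same complexes, which the symbol rule does not reach, also had SOX peaks more often than genes in general. Of 57 listed partners, 26 had SOX8 and 40 had SOX9 at P2, against 15.1% and 27.7% of all genes. At P17, 25 had SOX8 and 20 had SOX9, against 13.0% and 15.7%, so that SOX8 was the more frequent there, unlike at members. H3K4me3 lay at 53 and 54. A peak in all 4 SOX lists was present at 14 of them, against 6.45% of all genes, and 11 had none, against 66.1%. SOX9 was lost at 23 partners, against 16.4%, and gained at 3, Dpf1, Brd7 and Kat6b, against 4.35%. SOX8 was lost at 8, against 7.0%, and gained at 7, against 4.94%. The Polycomb repressive complex 2 partners had SOX9 at 5 of 5 at P2 and 2 of 5 at P17, against 27.7% and 15.7%. Like Ezh2, the core subunit genes Eed and Suz12 had both factors at P2, with SOX8 peaks of 2068 and 2362 bp, and neither at P17. Jarid2, an accessory subunit, had SOX8 peaks of 2108 and 2211 bp and SOX9 peaks of 2786 and 2458 bp. Cofactors of the H3K4 methyltransferases (the COMPASS core) had SOX9 at 3 of 6 and then 1 of 6, against 27.7% and 15.7%. SOX8 lay at 1 and then 3 of them, against 15.1% and 13.0%. Both counts of 1 were thus near the all-gene share. The H3K4 methyltransferase genes themselves had SOX9 at all 7 at both ages.

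BAF partners had SOX9 at 9 of 14 at P2 and 5 of 14 at P17, against 27.7% and 15.7% of all genes. Actl6a, the BAF53a subunit of progenitors, had a SOX9 peak of 2182 bp at P2 alone, with SOX8 peaks of 1461 and 1358 bp. Its neuronal counterpart Actl6b had no SOX or H3K4me3 peak at either age. Dpf3, another subunit of differentiated cells, had a SOX9 peak of 2039 bp at P2 and 8405 bp at P17, and a SOX8 peak of 3340 bp at P17 alone. NuRD partners had SOX9 at 5 of 6 and then 2 of 6, against 27.7% and 15.7%. They had SOX8 at 4 at both ages, against 15.1% and 13.0%.

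Progenitor and Müller glia markers had fewer SOX peaks at P17 than at P2, and rod markers had more. Losses outnumbered gains over all genes too, with SOX9 lost at 16.4% and gained at 4.35%, and SOX8 lost at 7.0% and gained at 4.94%. The part of cell makeup in the differences between ages was not tested. List length, threshold and depth also differ or are unknown, and their part was not tested. Since each list stands alone, none of the differences between ages can be set against replicate spread.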

How the data were processed

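Per the submitters' processing notes, Bowtie2, SEACR and the build GRCm38 were used, with no role stated. The threshold, the use of IgG and the pooling of libraries are not given in the sources used here. The 8 deposited lists give the start and end of each peak, in base pairs, and a score of 0 throughout, so width is the only size measure. By age and target each list was taken to stand for its group of libraries. Coordinates are counted from 1.

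Peaks were matched to 21887 protein-coding genes of RefSeq's GRCm38.p6 table with 5 kb flanks and an overlap of at least 1 bp, in Python 3.11.15 with numpy 2.4.6, scipy 1.17.1 and matplotlib 3.10.9. Matching was tested on simulated data of 400 genes, with 0 differences from a direct count. No test was possible, so each count stands beside the same count over all genes. Starts came from the promoter table, and for genes without an entry both gene ends were used.

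Named genes were the 3 widest per list, the 12 widest with peaks in all 4 SOX lists, up to 6 gained or lost per factor, those lacking H3K4me3, and fixed genes by role. Others are named to complete counts. Members, partner genes, markers and lists were chosen with earlier results of these data known. Alternatives were the window, the overlap, the wider part of each list, lists of equal length, autosomes, and other backgrounds.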

Additional observations from a re-analysis of the deposited data

How the results depend on the processing

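Of 84 alternatives of the 8 counts of members with a peak and the 4 counts of SOX gains and losses, 78 stayed within 1.5 times the reported count, and the member share was above the share of all genes in 64 of 64 settings of the 8 counts. With only the peaks wider than the median of their list, members with a P17 SOX8 peak numbered 13 (7.16% of all genes) and with a P17 SOX9 peak 11 (8.38%). SOX8 was then gained at 5 members (4.45% of all genes) and lost at 24 (4.88%), and SOX9 lost at 34 (10.2% of all genes). With equal numbers of widest peaks, 13 members gained SOX9 (8.16% of all genes). Among genes with a P2 peak, the share that lost it differed by -20.2 points for SOX8 and -19.6 for SOX9 (members minus all genes). This reversed to 10.7 and 11.2 with the wider peaks alone, and was negative in the other 6 settings of each factor. In those 6 settings its size varied. For SOX8 it ranged from -21.9 points (autosomal members only) to -9.50 (without peaks over 2 or more genes). For SOX9 it ranged from -19.9 points (peak centre in the window) to -10.2 (equal numbers of widest peaks). The cause of the reversal and of this variation was not tested. Leaving out peaks over more than 1 gene, the H3K4me3 width bins, and the settings of this share were added after the data were seen. No paired analysis was possible because the lists carry no values per replicate. Depth is unknown, so a missing peak may be one that was not detectable.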
